A study of Mus musculus with 22 samples.

Results

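The first mandibular molars of mice with 1 mutated copy of Tgfbr2 were compared with those of unmutated littermates at postnatal day 5 (P5), while the enamel matrix is being laid down. The comparison holds the 12 bulk RNA-seq libraries named P5 of the 22 in the series: 6 from Tgfbr2-G357W/+ mice (Het) and 6 from Tgfbr2-+/+ mice (WT). It was read across all 21510 genes with enough counts to test. The other 10 libraries, 5 per genotype, come from postnatal day 11 (P11) and serve here to pool the spread and to set the P5 differences beside those at the later age. The allele models Loeys-Dietz syndrome type II, an inherited disorder of connective tissue caused by altered TGF-beta signalling. It is a germline allele and not limited to 1 tissue, and whole molars hold enamel organ, odontoblasts, pulp and vessels together. In bulk tissue, fewer cells of a type and less RNA per cell cannot be told apart.

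TGF-beta ligands are secreted bound in a latent complex and are released by integrins, thrombospondin and proteases. The active ligand joins the type II receptor encoded by Tgfbr2 to the type I receptor, which phosphorylates SMAD proteins that enter the nucleus and bind DNA with partner factors. In the tooth the pathway is known for its part in the epithelial and mesenchymal exchange that shapes the crown, in odontoblast differentiation and in the maturation of enamel. At the secretory stage ameloblasts release amelogenin, ameloblastin and enamelin, which the protease MMP20 trims. Later the ameloblasts turn to kallikrein 4, amelotin, ODAM and ion transporters to remove the matrix and harden the mineral.

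The glycine named in the allele lies in the kinase domain of the receptor. In the transcript Tgfbr2-201 of the GENCODE M21 annotation, codon 357 of 567 lies in exon 4 of 7 and reads GGC, a glycine codon. The unmutated coding sequence around it is shown with that codon in capitals, since it is the site that sets the 2 groups apart.
Tgfbr2-201 (GRCm38, chr9:116109666-116109710, minus strand): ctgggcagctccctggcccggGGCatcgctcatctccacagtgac
The longer Tgfbr2-202 has 592 codons and another codon at its position 357, so the numbering of the allele matches the shorter protein. The sequence was read from the annotation's transcripts, not from the libraries.

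Where a group is given by 3 values, they are its lowest, median and highest library. Library totals at P5 ran from 32904047 to 41046327 counts. The secretory enamel genes marked every P5 library as a molar with active ameloblasts: Enam stood between 23972 and 31153 CPM (read counts per gene scaled to library size, with trimmed-mean-of-M-values factors) at P5, and between 33.6 and 2713 CPM at P11. P5 Het library 6 is P5 in its title and P11 in its tissue and treatment fields, and it was grouped by its title. Its Enam level was 27029.6 CPM and its Klk4 level 5.01 CPM, where P11 libraries held 180.1 to 307 CPM of Klk4. Muscle markers stood apart in Het library 5 (mean of the list 1.16 on the log2 CPM scale, against -1.25 to -0.74 in the other 5 Het and -1.50 to -0.78 in the WT libraries). So did oral keratinocyte markers in Het library 4 (0.34, against -1.32 to -0.93 in the other 5 Het and -1.34 to -0.63 in WT). Summed over the list, muscle markers reached 79.8 CPM in Het and 16.5 CPM in WT. By their Y-linked transcripts 3 WT and 4 Het libraries are male. A number in each library name before the hyphen, here the prefix, has no stated meaning: 3 in 2 WT and 2 Het libraries, 4 in 4 WT and 2 Het libraries, and 5 in Het libraries 5 and 6. According to the series text 5 Het and 8 WT mice were used, and no label ties a library to an animal. That is fewer Het mice than the 6 Het libraries of P5 alone. If the count covers the whole series, some P5 Het libraries share an animal, and WT libraries may too. The p-values and SE measure the spread between libraries, not between animals, and may therefore be too small.

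Tgfbr2 itself did not pass the test. The lowest, median and highest WT libraries held 156, 185 and 192 CPM and the Het libraries 162, 187 and 210.3 CPM, and the groups overlapped (log2 change 0.05 ± 0.07 SE, adjusted p = 0.959). A mutation of 1 residue leaves the transcript in place, and the level is therefore no check of the genotype labels. None of the 291 tested genes within 10 Mb of Tgfbr2 on chromosome 9 passed the test, where 0.26% of all tested genes did. At that share a set of this size can hold no such gene, so the absence is a description.

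Few genes differed between Het and WT molars at P5, and most of those that did were lower in Het. By the quasi-likelihood test of edgeR at an adjusted p under 0.05, which is what "called" means here, 56 genes passed (0.26% of those tested): 42 were lower in Het (0.195%) and 14 were higher (0.0651%). Over all genes the median log2 fold change was -0.0042, with 11019 genes negative and 10488 positive. At an unadjusted p under 0.05 there were 1338 genes (6.22%), 738 lower (3.43%) and 600 higher. Of the 56, 54 code for proteins, 13 differed by more than 2-fold and 17 by less than 1.4-fold. In 41 of them, 31 lower and 10 higher, no Het library overlapped any WT library, against 183 such genes in all (0.851%), of which 109 were lower (0.507%) and 74 higher (0.344%) in Het. These 41 were chosen by the same contrast, so the count is a description. The 56 genes lie on 19 chromosomes, at most 5 of them on 1 (chromosome 11), and 31 overlap another annotated gene. The library kit keeps no strand, so reads of overlapping genes cannot be told apart. The libraries of prefix 3 alone, and those of prefix 4 alone, gave the same direction as all 12 for each of the 56, which is a description, since these libraries are 10 of the 12 that chose the genes.

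**Figure D1:**
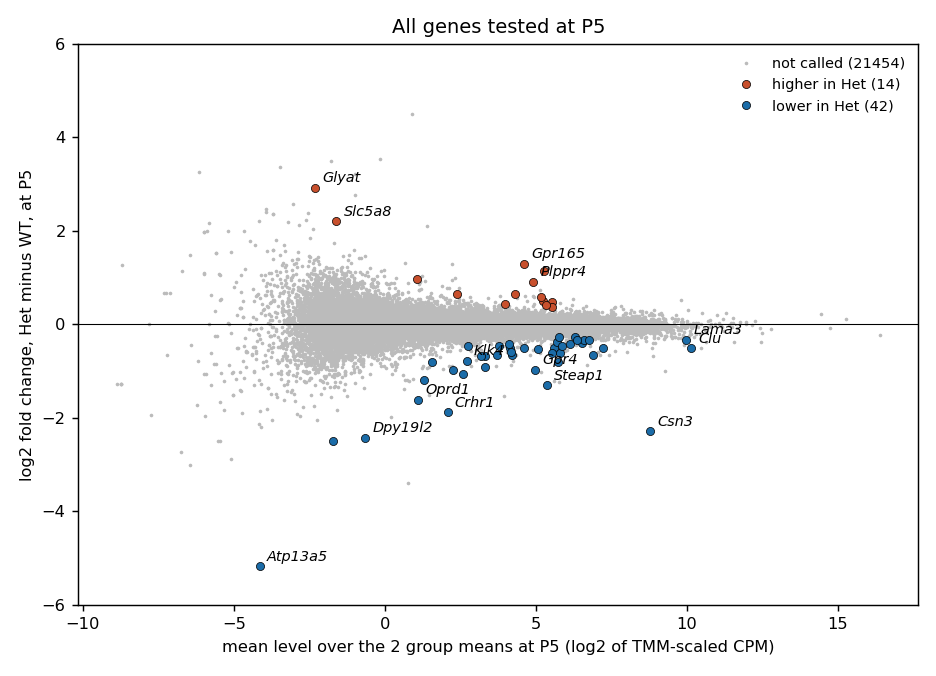
Each point is 1 of the 21510 genes tested at P5, with the mean level of the 2 groups on the horizontal axis (log2 of TMM-scaled CPM) and the log2 fold change, Het minus WT, on the vertical axis. The 42 genes called lower (blue) and the 14 called higher (red) span low and high levels, and Atp13a5, without a read in any Het library, is drawn at its fitted value, which is not a measured fold.

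Steap1 and Steap2, neighbours on chromosome 5 that encode metalloreductases of the STEAP family, were both lower in Het. Steap1 (ENSMUSG00000015652; GRCm38, chromosome 5, 5736317 to 5749326) gave the smallest p of all genes and fell to 40.4% of the WT level. Its lowest, median and highest values were 52.8, 59.2 and 63.4 CPM in WT and 20.4, 23.8 and 27.4 in Het, with a wide gap between the groups (log2 change -1.31 ± 0.11 SE, adjusted p = 6.49e-07). Steap2 (ENSMUSG00000015653; GRCm38, chromosome 5, 5664829 to 5694578) fell to 70.2%, from 55.5, 56.2 and 63.7 CPM in WT to 37.6, 39.7 and 44.7 CPM in Het. Its groups did not overlap either (log2 change -0.51 ± 0.08 SE, adjusted p = 0.00241). WT library 5 was the highest for both genes. The gap between the 2 genes is 41.7 kb and holds no other tested gene. The other 2 members of the family were not called: Steap3, on chromosome 1, had a log2 fold change of 0.08 ± 0.09 (SE) and Steap4, which lies farther along chromosome 5, 0.30 ± 0.22 (SE).

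The 250 bases ahead of the annotated start of both neighbours are shown because the genes moved together, with the SMAD-binding letters CAGAC, or GTCTG on the other strand, in capitals. They are from RefSeq on the build GRCm38.p6.
Steap1 (chr5:5749318-5749567, minus strand): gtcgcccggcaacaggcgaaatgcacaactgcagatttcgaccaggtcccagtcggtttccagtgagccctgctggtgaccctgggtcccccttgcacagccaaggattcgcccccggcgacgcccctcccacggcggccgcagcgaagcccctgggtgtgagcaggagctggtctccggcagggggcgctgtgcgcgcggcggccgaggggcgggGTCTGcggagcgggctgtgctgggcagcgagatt
Steap2 (chr5:5694569-5694818, minus strand): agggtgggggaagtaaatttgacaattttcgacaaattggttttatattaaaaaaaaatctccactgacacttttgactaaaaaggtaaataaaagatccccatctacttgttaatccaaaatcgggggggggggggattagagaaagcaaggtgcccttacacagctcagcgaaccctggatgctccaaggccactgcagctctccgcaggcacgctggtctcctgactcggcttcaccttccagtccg
The Steap1 window holds 1 copy and the Steap2 window, the first of 3 annotated starts, holds none. Such a copy stood in 42.2% of 27025 mouse promoter windows of this length and in 20 of the 39 called genes with a window (51.3%). The longer palindrome GTCTAGAC stood in 0.174% of all windows and in none of the 39. A match is a description of the letters and not of binding.

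Cd55, which encodes a membrane inhibitor of complement, was lower in Het together with its noncoding neighbour on chromosome 1. Cd55 (ENSMUSG00000026399; GRCm38, chromosome 1, 130439027 to 130462744) fell to 57% of WT. The WT libraries held 58.2, 66.9 and 77.7 CPM (lowest, median, highest) and the Het libraries 32.7, 37.8 and 42.4 CPM, without overlap (log2 change -0.81 ± 0.10 SE, adjusted p = 1.45e-04). Gm15675, a long noncoding RNA gene 1.84 kb away, fell from 10.3, 12.7 and 16.1 to 5.94, 6.61 and 8.52 CPM, again without overlap (log2 change -0.91 ± 0.16 SE, adjusted p = 0.00972). Cd55b, a copy of Cd55 on the far side of Gm15675, is nearly silent: it drew 114 counts over the 6 WT libraries and 19 over the 6 Het libraries (adjusted p = 0.0458). Its call was lost without any 1 of 11 libraries, by voom (adjusted p = 0.0611), with the prefix as a block (0.329), with the replicate block, without the filter and with sex as a covariate. Of the 100-base windows of Cd55b transcripts, 12.1% also occur in Cd55, so part of its reads can be reads of Cd55. Cd55os, annotated on the opposite strand across the region, was at 1.15, 1.79 and 2.09 CPM in WT and 0.745, 0.935 and 1.22 in Het and was not called (adjusted p = 0.289).

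The windows ahead of both copies are given for comparison, with the same letters in capitals (RefSeq, GRCm38.p6).
Cd55 (chr1:130462745-130462994, minus strand): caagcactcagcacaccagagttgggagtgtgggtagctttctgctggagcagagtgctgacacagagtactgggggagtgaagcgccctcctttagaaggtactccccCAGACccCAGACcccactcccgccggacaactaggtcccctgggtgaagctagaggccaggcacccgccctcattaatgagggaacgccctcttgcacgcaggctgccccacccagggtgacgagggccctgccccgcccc
Cd55b (chr1:130423044-130423293, minus strand): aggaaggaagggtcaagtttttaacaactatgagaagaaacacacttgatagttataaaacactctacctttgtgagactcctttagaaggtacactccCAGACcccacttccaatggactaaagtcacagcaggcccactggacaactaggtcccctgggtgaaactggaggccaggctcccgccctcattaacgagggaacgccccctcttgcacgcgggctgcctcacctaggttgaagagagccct
In an alignment of both whole windows, 179 of 281 columns were identical (63.7%). The Cd55 window holds 2 copies of CAGAC and the Cd55b window 1. Steap1 with Steap2 and the chromosome 1 group are among 5 pairs of called genes that lie within 500 kb of each other. The other 2 pairs are Dnajc9 with Usp54 on chromosome 14 and Snai3 with Galns on chromosome 8. In each of the 5 both genes were lower in Het, as were 42 of all 56 called genes. Snai3 and Galns both overlap the annotated gene Gm20388, whose reads cannot be told apart from theirs. Whether called genes lie closer together than other tested genes was not tested.

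Of the called genes, 4 encode receptors coupled to G proteins, and 3 of these were lower, where 75% of all called genes were lower. How many such receptors were tested was not counted, so no share can be set beside the 0.26% of all genes. The group is a description. Gpr4 (ENSMUSG00000044317; GRCm38, chromosome 7, 19212538 to 19224174), a proton-sensing receptor best known from endothelium, was at 38.6, 42.2 and 46 CPM in the lowest, median and highest WT library and at 19.2, 21.1 and 23.8 CPM in Het. The groups were far apart, with Het at 51.1% of WT (log2 change -0.97 ± 0.14 SE, adjusted p = 0.00198). Crhr1 (ENSMUSG00000018634; GRCm38, chromosome 11, 104132855 to 104175523), the receptor of corticotropin-releasing hormone, was at 5.09, 6.46 and 8.06 CPM in WT and 1.39, 1.75 and 2.41 in Het. Every Het library lay below the lowest WT library, and the Het mean was 27.1% of WT (log2 change -1.88 ± 0.28 SE, adjusted p = 0.00241). Oprd1, the delta opioid receptor, fell to 32.6% of a low WT level, from 2.09, 3.15 and 4.53 to 0.547, 0.974 and 1.52 CPM, without overlap (log2 change -1.62 ± 0.33 SE, adjusted p = 0.0268). Oprd1 stayed called without WT library 1, 3 or 4 or Het library 3 or 5, and lost the call without any 1 of the other 7 (adjusted p at most 0.0893), with the replicate block and with the prefix as a block (adjusted p = 0.0808). The orphan receptor Gpr165, on the X chromosome, went the other way. Its libraries held 11.2, 13.7 and 17.2 CPM in WT and 27.3, 31.8 and 46.1 in Het, or 246% of WT, and again no library overlapped (log2 change 1.30 ± 0.20 SE, adjusted p = 0.00241). Its highest values were in Het libraries 3 and 4, at 46.1 and 42 CPM, both of prefix 4. Most other endothelial and mural markers did not fall with Gpr4. Of 26 tested, Gpr4 included, 21 were positive and 5 negative in log2 fold change (median 0.08), and Gpr4 was the only one called. At an unadjusted p under 0.05 by edgeR 3 were higher and 1, Gpr4, was lower (15.4%, against 6.22% of all genes).

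Among the remaining genes with the smallest p, Plppr4, Cdh23 and Coro6 were higher and Htatip2, Dpy19l2, Mpv17l, Hs3st6, Srpx and Smim3 lower in Het. Plppr4, a lipid phosphatase-related membrane protein known from neurons, was at 17.2, 21.6 and 23.4 CPM in WT and 35, 38.5 and 44.7 in Het (lowest, median, highest; log2 change 0.92 ± 0.10 SE, adjusted p = 2.49e-05). Cdh23, a cadherin known from the links between hair cell stereocilia, rose from 28.6, 31.7 and 33.7 to 38.9, 44 and 49.7 CPM (log2 change 0.49 ± 0.08 SE, adjusted p = 0.00634). Coro6, an actin-binding coronin, rose from 36.3, 40 and 41.1 to 45.5, 54.2 and 64.1 CPM (log2 change 0.47 ± 0.08 SE, adjusted p = 0.00907). In all 3 the lowest Het library lay above the highest WT library.

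Htatip2, an oxidoreductase also known as TIP30, fell from 19.3, 22.6 and 26.6 CPM in WT to 12.5, 13.8 and 16.9 CPM in Het (log2 change -0.67 ± 0.09 SE, adjusted p = 7.10e-04). Mpv17l, a membrane protein related to mitochondrial Mpv17, fell from 10.4, 12.2 and 15.1 to 7.09, 7.59 and 8.58 CPM (log2 change -0.67 ± 0.11 SE, adjusted p = 0.00618). Hs3st6, a sulfotransferase that modifies heparan sulfate, fell from 2.81, 3.58 and 4.74 to 1.94, 2.05 and 2.7 CPM (log2 change -0.80 ± 0.13 SE, adjusted p = 0.00634), with the highest Het value in library 6. None of these groups overlapped. Srpx, a secreted sushi-repeat protein, fell from 53.9, 57.6 and 65.1 to 41.5, 44.9 and 51.5 CPM (log2 change -0.37 ± 0.06 SE, adjusted p = 0.00705). Smim3, a small membrane protein, fell from 47.6, 54.2 and 70.2 to 28.8, 36.8 and 42.1 CPM (log2 change -0.62 ± 0.11 SE, adjusted p = 0.00907). Dpy19l2, known for its part in sperm head formation, was barely expressed: it drew 240 counts over the WT and 44 over the Het libraries, or 0.731, 1.08 and 1.4 CPM in WT against 0.0558, 0.204 and 0.36 in Het (log2 change -2.42 ± 0.38 SE, adjusted p = 0.00381). Het libraries 1 and 2, both of prefix 3, held 0.0558 and 0.0579 CPM of it, less than the other 4.

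**Figure D2:**
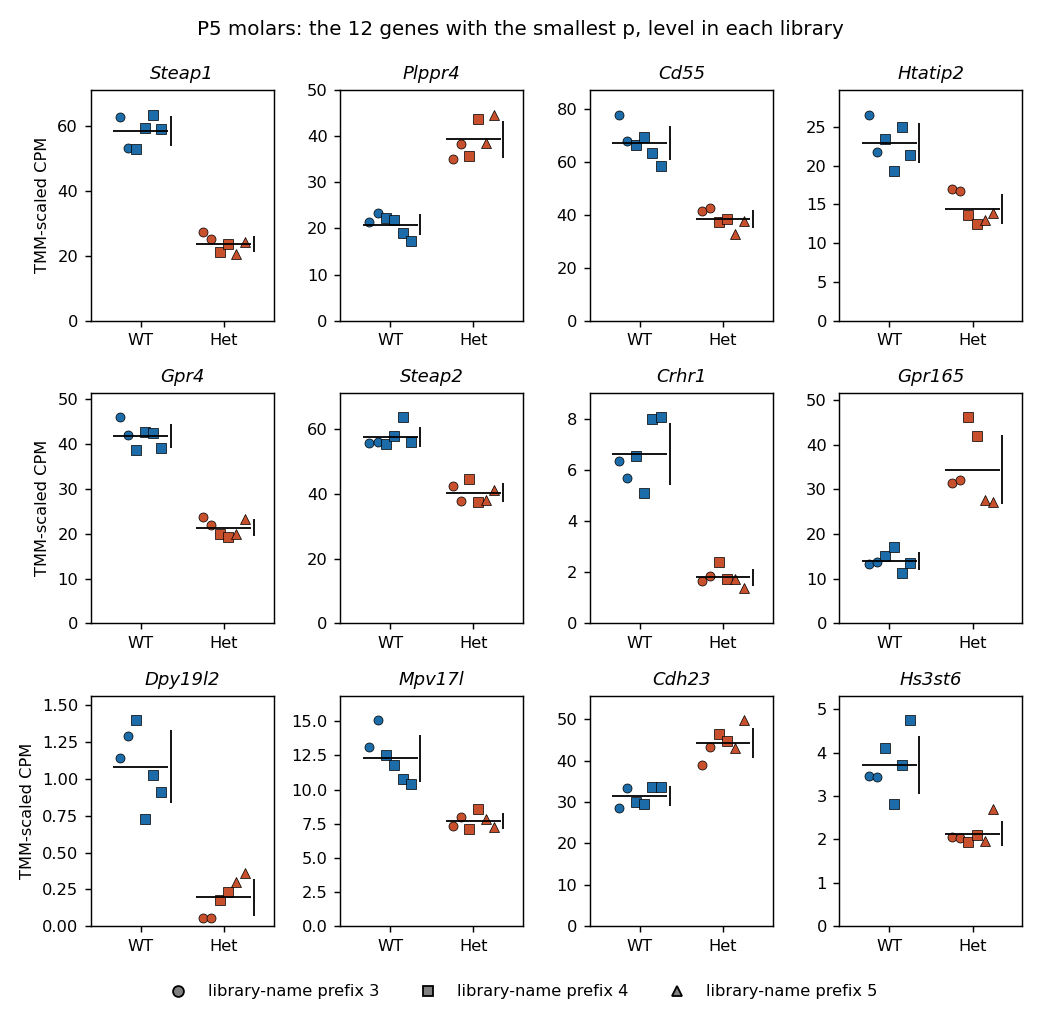
TMM-scaled CPM of the 12 genes with the smallest p in each P5 library (6 WT in blue, 6 Het in red), with shapes for the library-name prefix, horizontal bars for group means and vertical bars for 1 SD to either side. In each of the 12 panels the WT and Het points do not overlap, with 9 genes lower and 3 (Plppr4, Gpr165 and Cdh23) higher in Het.

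Among genes of the TGF-beta pathway and its known targets 1 was called, and most of those at an unadjusted p under 0.05 were lower. Of 20 tested genes for ligands and their activation, 10 were positive and 10 negative in log2 fold change (median -0.02), against -0.0042 over all genes. At an unadjusted p under 0.05 by edgeR 2 were lower and 1 higher (15%, against 6.22% of all genes). The called member was Thbs1, whose product thrombospondin 1 releases latent TGF-beta and which is itself a target of the pathway. Thbs1 (ENSMUSG00000040152; GRCm38, chromosome 2, 118111876 to 118127133) was at 35.5, 37.9 and 47.8 CPM in WT and 22.4, 28.6 and 31.5 in Het (lowest, median, highest). The groups did not overlap, and WT library 2 stood above the other 5 WT libraries (log2 change -0.53 ± 0.09 SE, adjusted p = 0.00705). Itgav, which encodes an integrin subunit that frees the ligand, had the next smallest p of that list and was not called (106, 119 and 130.3 CPM in WT against 122, 128 and 136 in Het, adjusted p = 0.749).

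None of the 20 tested receptors, SMADs and inhibitors was called (11 positive, 9 negative, median 0.01). At an unadjusted p under 0.05 by edgeR there were 3, all lower, where 3.43% of all genes were lower. The smallest p belonged to Pmepa1, a target that in turn dampens SMAD signalling. Its WT libraries held 152, 185 and 206 CPM and its Het libraries 110.4, 124 and 149 CPM, without overlap, and it missed the threshold (log2 change -0.48 ± 0.12 SE, adjusted p = 0.101). In a fit of the 12 P5 libraries alone its adjusted p was 0.0285. Skil, a SMAD corepressor induced by the pathway, ranged over 235, 303 and 386 CPM in WT and 203, 218 and 289 in Het and overlapped (log2 change -0.37 ± 0.16 SE, adjusted p = 0.724). Of 30 tested target genes, 20 were negative and 10 positive, with a median of -0.11, and Thbs1 was the called one. At an unadjusted p under 0.05 there were 4 targets, all lower. The groups did not overlap in 2 targets, both lower, against 0.507% of all genes. Thbs1, Pmepa1 and Skil are members of more than 1 of these lists, so the counts are not independent.

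Among 33 tested genes of BMP and activin signalling, 18 were negative and 15 positive (median -0.02). Fst, which encodes follistatin, a secreted protein that binds and neutralises activins, was called lower. Its WT libraries held 6.18, 7.8 and 11.8 CPM and its Het libraries 3.53, 3.64 and 5.15 CPM, with Het library 4 above the other 5 Het libraries and no overlap (log2 change -1.05 ± 0.20 SE, adjusted p = 0.0177). Fst lost the call when WT library 4 or Het library 1, 2, 5 or 6 was left out, with an adjusted p of at most 0.0568. It was also not called by voom (adjusted p = 0.0885) or without both Het libraries 5 and 6 (0.168). Bmp5, a ligand of the family, was at 11.8, 13.3 and 14.6 CPM in WT and 9.56, 10.8 and 12.1 in Het and was not called (adjusted p = 0.403).

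**Figure D3:**
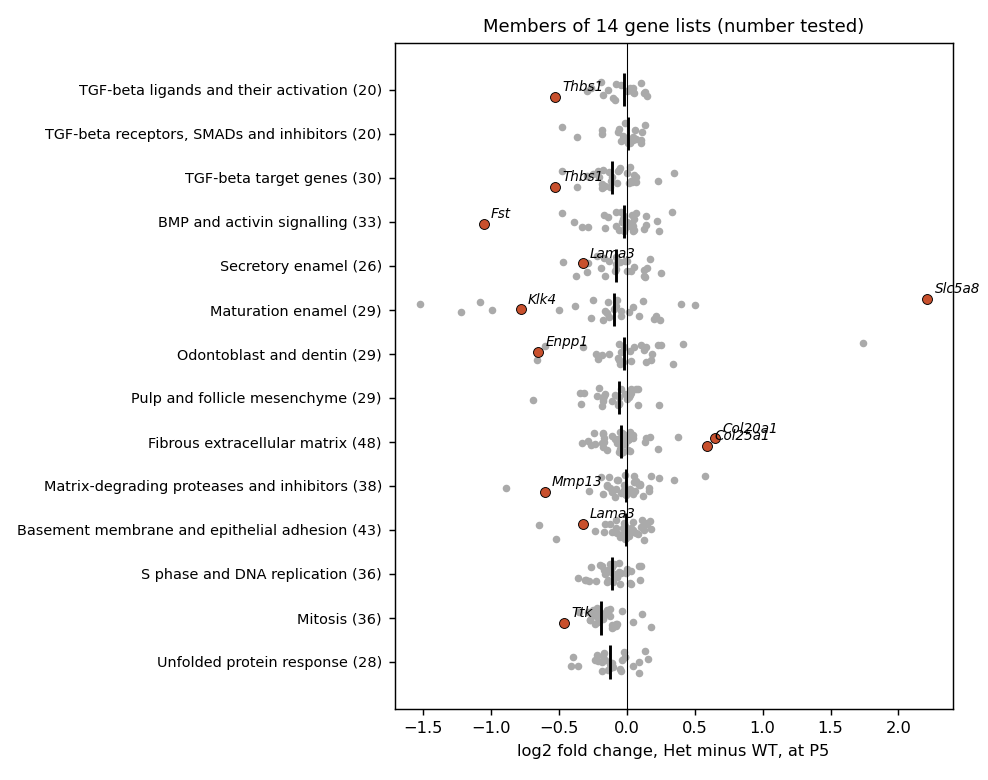
Each point is the log2 fold change (Het minus WT at P5) of 1 tested member of 14 gene lists, with called genes in red, the list median as a thick bar and the number tested in parentheses. List medians lie between -0.19 (mitosis) and 0.01 (TGF-beta receptors, SMADs and inhibitors), and no list has more than 2 called members.

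In the matrix, 2 unusual collagens were higher and a laminin chain and a collagenase lower. Col20a1, a collagen that sits on the surface of fibrils, was at 3.33, 4.04 and 4.73 CPM in WT and 5.55, 6.54 and 7.04 in Het (log2 change 0.65 ± 0.11 SE, adjusted p = 0.00634). Col25a1, a transmembrane collagen, was at 25.4, 26.6 and 37.1 CPM in WT and 39, 40.8 and 54.5 in Het (log2 change 0.59 ± 0.11 SE, adjusted p = 0.0114). Neither pair of groups overlapped, and the replicate numbered 2 was the highest library of both groups for Col25a1. They were the called genes among 48 tested for fibrous extracellular matrix, where 0.26% of all genes were called. Of the 48, 32 were negative and 16 positive (median -0.04). At an unadjusted p under 0.05 by edgeR 2 were higher and 6 lower (16.7%, against 6.22% of all genes). The list also holds the main fibrillar collagens, none of which was called.

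Lama3 (ENSMUSG00000024421; GRCm38, chromosome 18, 12333819 to 12583013), which encodes the alpha chain of the laminin that anchors ameloblasts and other epithelia to their basement membrane, fell to 79.9% of WT. The level was 1079, 1116 and 1172 CPM in WT and 853, 890.3 and 932 in Het, a small shift with little spread and no overlap (log2 change -0.32 ± 0.05 SE, adjusted p = 0.00634). It was the called member of both the basement membrane list (43 tested, 23 negative, median -0.01) and the secretory enamel list. Cldn1, a tight junction protein, showed a wider shift without overlap, from 188, 207 and 224 to 108, 135 and 148 CPM, and was not called (log2 change -0.64 ± 0.15 SE, adjusted p = 0.0768). Its adjusted p was 4.81e-04 in the fit of the P5 libraries alone. Mmp13, a collagenase of bone and tooth, was lower at 49.7, 67.7 and 79.9 CPM in WT against 36.7, 43.4 and 51.4 CPM in Het, with overlapping ranges (log2 change -0.60 ± 0.11 SE, adjusted p = 0.0119). Of the 38 proteases and inhibitors tested with it, 20 were negative and 18 positive (median -0.01), and Adamts16 came next by p (0.97, 1.58 and 1.92 CPM in WT against 0.423, 0.687 and 1.78 in Het, adjusted p = 0.342).

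The enamel matrix genes did not pass the test, while Klk4 and, with the prefix as a block, 4 other genes of the maturing ameloblast were called lower. Amelx, which encodes amelogenin, ranged over 30195, 41014 and 44102 CPM in WT and 35438, 41746 and 47004 in Het (log2 change 0.13 ± 0.33 SE, adjusted p = 0.977). Ambn, for ameloblastin, ranged over 79668, 94312 and 105355 CPM in WT and 60838, 79901 and 92312 in Het (log2 change -0.22 ± 0.17 SE, adjusted p = 0.928). Enam, for enamelin, ranged over 24983, 28498 and 31153 CPM in WT and 23972, 26474 and 28845 in Het (log2 change -0.08 ± 0.61 SE, adjusted p = 0.991), and Mmp20 over 847, 904 and 1055 CPM in WT and 752, 874 and 908 in Het (log2 change -0.13 ± 0.09 SE, adjusted p = 0.906). All 4 overlapped. The wide SE of Enam comes with the spread among P11 libraries, which the pooled fit shares. With the P5 libraries alone its SE was 0.08 and it was still not called (adjusted p = 0.911). Of 26 tested secretory enamel genes 17 were negative and 9 positive (median -0.08), and after Lama3 the smallest p was that of Acp4, an enamel acid phosphatase (835, 1004 and 1096 CPM in WT against 659.5, 812 and 918 in Het, adjusted p = 0.493).

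Klk4, the protease that clears the matrix in maturing enamel, was called lower at 58.2% of WT. The lowest, median and highest libraries held 6.7, 7.8 and 11 CPM in WT and 3.57, 4.7 and 6.33 in Het, without overlap (log2 change -0.78 ± 0.16 SE, adjusted p = 0.0284). Klk4 kept its call without WT library 1, 3 or 4 or Het library 4 and lost it without any 1 of the other 8, with an adjusted p of at most 0.102. It was not called by voom (adjusted p = 0.373) or without Het libraries 5 and 6 (0.176). In WT molars Klk4 rose with age by 4.95 on the log2 scale, a comparison that shares the P5 WT libraries with this one. Slc5a8, a sodium-coupled carrier of short-chain acids, was called higher from very few reads, 25 counts over the WT and 115 over the Het libraries, with overlapping ranges (0.0269, 0.096 and 0.284 CPM in WT and 0.18, 0.653 and 0.835 in Het, adjusted p = 0.0268). Slc5a8 lost the call without any 1 of 8 libraries and by voom (adjusted p = 0.257). They were the called members among 29 tested maturation genes, 19 negative and 10 positive (median -0.09).

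Csn3, which encodes the milk protein kappa-casein and lies in the chromosome 5 cluster between Odam and Amtn, fell to 20.5% of WT. Its WT libraries held 321, 689 and 1052 CPM and its Het libraries 17.7, 163 and 263 CPM, without overlap, and its adjusted p of 0.0414 was close to the threshold (log2 fold change -2.28 ± 0.49 SE). Both WT libraries of prefix 3 stood at 1052 and 1051 CPM, above the 4 of prefix 4, and Het libraries 3 and 4, of prefix 4, were the lowest at 17.7 and 75.4 CPM. Within prefix 3 the log2 fold change was -2.16 and within prefix 4 -3.59. With the prefix as a block, where Het libraries 5 and 6 add nothing to the genotype effect, it was -2.95 ± 0.37 (SE; adjusted p = 4.36e-04). Without the block Csn3 stayed called without WT library 5 or 6 or Het library 1 or 3, and lost the call without any 1 of the other 8 (adjusted p at most 0.126), without Het libraries 5 and 6 (adjusted p = 0.233) and with the P5 libraries alone (0.0503).

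The genes next to Csn3 and other maturation genes also had low levels in Het and were called in the fit with the prefix as a block, not in the one without. Amtn, for amelotin, was at 32.5, 63.3 and 110.1 CPM in WT and 4.47, 31.6 and 47.3 in Het with overlap, and its adjusted p went from 0.225 to 0.0108 with the block. Odam was at 1233, 1456 and 2323 CPM in WT and 801, 1202 and 1545 in Het, with an adjusted p of 0.403 without and 0.00407 with the block. Odaph, a phosphoprotein of enamel mineralisation, was at 1.31, 1.84 and 3.66 CPM in WT and 0.655, 0.814 and 1.64 in Het (adjusted p 0.0691 and 0.00767). Slc24a4, the calcium and potassium exchanger of maturing ameloblasts, was at 1.5, 3.35 and 8.85 CPM in WT and 0.238, 1.31 and 2.61 in Het (adjusted p 0.0971 and 0.00186). With the block the log2 fold changes of Amtn, Odam, Odaph and Slc24a4 were -1.64, -0.65, -1.40 and -1.79. In that fit 5 of the 29 maturation genes were called lower, among 49 genes lower (0.228%) and 20 higher (0.093%) in all, and Slc5a8 was called higher. None of Amtn, Odam, Odaph and Slc24a4 was called in the fits without a block by voom, with the P5 libraries alone (adjusted p 0.403, 0.491, 0.197 and 0.329) or without Het libraries 5 and 6 (0.521, 0.777, 0.0927 and 0.416). DESeq2 without the block called Odaph and Slc24a4 lower (adjusted p 0.00148 and 0.0294). Het library 3 was the lowest of the 12 for Csn3, Amtn, Odam, Odaph, Slc24a4 and Klk4, and also for Ambn.

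**Figure D4:**
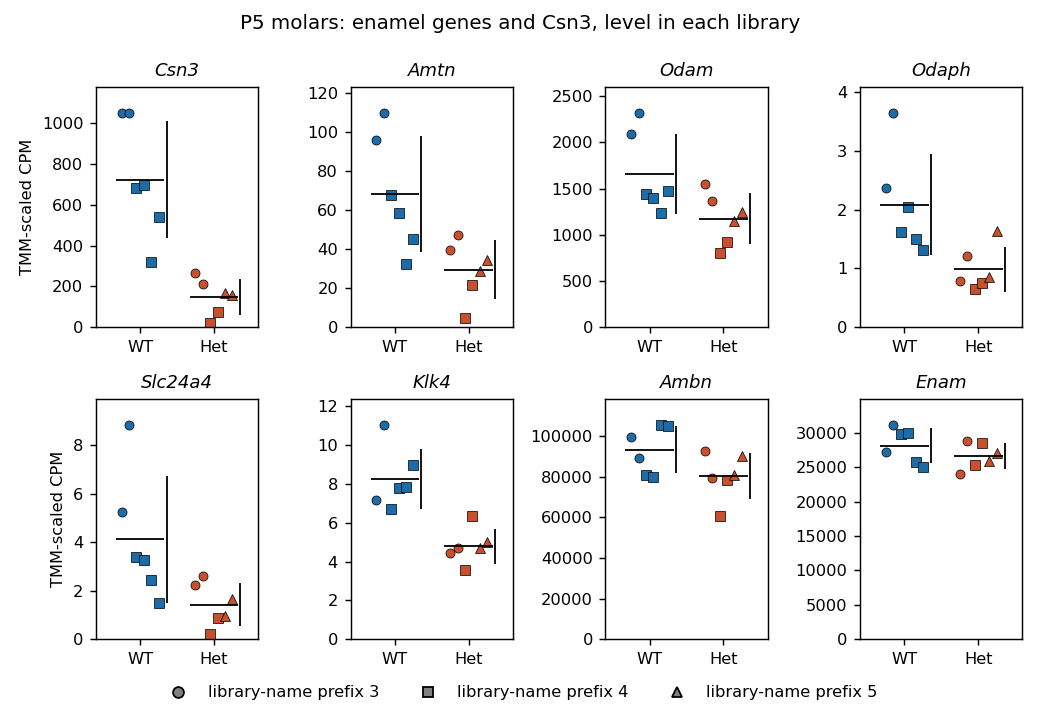
TMM-scaled CPM of 8 genes in each P5 library (WT blue, Het red), with shapes for the library-name prefix, horizontal bars for means and vertical bars for 1 SD to either side. Csn3 and Klk4 do not overlap between genotypes, Amtn, Odam, Odaph and Slc24a4 are highest in the WT libraries of prefix 3, and Ambn and Enam overlap.

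Odontoblast and pulp genes held 1 called gene. Enpp1, which makes the mineralisation inhibitor pyrophosphate, was lower at 93.9, 144 and 191 CPM in WT against 69.4, 95.4 and 109 CPM in Het, with overlapping ranges (log2 change -0.65 ± 0.13 SE, adjusted p = 0.0226). The call held without WT library 1, 2 or 3 or Het library 3, 4 or 6 and was lost without any 1 of the other 6 (adjusted p at most 0.0777). The call was also lost with the P5 libraries alone (adjusted p = 0.0973) and without both Het libraries 5 and 6 (0.121). Enpp1 was the called member of 29 odontoblast and dentin genes tested (15 negative, 14 positive, median -0.02). Sema3e, a guidance molecule, was next by p and had groups that did not overlap, 30.4, 31.4 and 40.8 CPM in WT and 40.9, 41.5 and 45.6 in Het, without passing the test (adjusted p = 0.116). Dspp, the dentin matrix gene that defines odontoblasts, was at 2938 ± 286 CPM in WT and 2842 ± 224 in Het (mean ± SD, n = 6 each; log2 fold change -0.05, edgeR adjusted p = 0.977). None of 29 genes of pulp and follicle mesenchyme was called (19 negative, 10 positive, median -0.06). The smallest p there were those of the Wnt antagonist Sfrp2 (9.24, 17.9 and 22.3 CPM in WT, 8.94, 10.6 and 11.4 CPM in Het, adjusted p = 0.148) and the transcription factor Lhx8 (6.41, 8.33 and 8.97 CPM in WT and 5.9, 6.33 and 6.89 in Het, adjusted p = 0.259).

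Both lysosomal sulfatases that the test picked out act on sulfated glycosaminoglycans and were lower. Arsb, which removes sulfate from dermatan and chondroitin sulfate, was at 155, 176 and 189 CPM in WT and 117, 124 and 128 in Het (lowest, median, highest; log2 change -0.51 ± 0.09 SE, adjusted p = 0.00728). Galns, which acts on keratan and chondroitin sulfate, was at 16.4, 20.4 and 21.7 CPM in WT and 14.2, 14.8 and 15.5 in Het (log2 change -0.42 ± 0.08 SE, adjusted p = 0.0166). Neither overlapped. Galns lost the call without WT library 1 or 5 or Het library 4 or 6 (adjusted p at most 0.0551), with the replicate block and with the prefix as a block (adjusted p = 0.0559), and Arsb kept it in these settings. In a list of 19 lysosomal hydrolases of this kind, made after these values were seen, 14 were negative and 5 positive with a median of -0.05, and no other was called.

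Of the other called enzymes and carriers, Dio2, Mgll, Cbr2, Inpp5j and Aqp1 were higher. Dio2, the deiodinase that activates thyroid hormone, rose from 20.1, 22 and 30.3 CPM in WT to 39.3, 52.3 and 62.6 CPM in Het, or 221% of WT, without overlap (log2 change 1.14 ± 0.20 SE, adjusted p = 0.0102). Mgll, a monoacylglycerol lipase, had a log2 fold change of 0.44 and Inpp5j, an inositol phosphatase, one of 0.65, both without overlap. The carbonyl reductase Cbr2 (0.40) and the water channel Aqp1 (0.36) had overlapping groups. Lower were the organic anion carrier Slco3a1 (-0.41), the monocarboxylate carrier Slc16a6 (-0.67), the lipid phosphatase Plpp1 (-0.47) and the sialyltransferase St3gal4 (-0.34), of which Plpp1 and St3gal4 overlapped. Glyat, a glycine acyltransferase of liver, was called higher on 10 counts in WT and 80 in Het. Glyat kept the call in 2 of 12 omissions of a library and in the others lost it or had no adjusted p. The call was also lost with the prefix as a block (adjusted p = 0.241), the replicate block, sex as a covariate and no filter. Atp13a5, a cation-transporting ATPase, was called lower on 25 counts in 5 of the 6 WT libraries and none in Het. Atp13a5 was not called by voom (adjusted p = 0.453) or with the prefix as a block (0.133). Against a floor of 3 counts over the Het group it was at least 8.04-fold lower.

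Apart from the immune genes described further on, the remaining called genes were lower. Among regulators of transcription these were Sox13 (-0.66), Zbtb11 (-0.50) and Snai3 (-0.97), with overlapping groups for Snai3. Clu, which encodes the secreted chaperone clusterin, went from 1084, 1344 and 1623 CPM in WT to 825, 896 and 1120.4 CPM in Het with overlap (log2 change -0.51 ± 0.11 SE, adjusted p = 0.0458). The matrix glycoprotein Olfml3 was at -0.51 on the log2 scale and the adaptor Pstpip2 at -0.47, both with overlap. The vesicle protein Stx18 was at -0.40, the chaperonin subunit Cct2 at -0.34, the splicing factor subunit Lsm6 at -0.28, and none of these 3 overlapped. Dnajc9, a histone co-chaperone, had the smallest change of the 56 (-0.26 ± 0.05, SE), and its WT libraries lay within 58.4 to 59.8 CPM against 46.2 to 52.1 CPM in Het. The telomere protein Pot1b (-0.58) and the ubiquitin peptidase family member Usp54 (-0.33) overlapped.

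Cell cycle genes had mostly negative log2 fold changes in Het, with 1 gene called, where 51.2% of all tested genes were negative. Of 36 mitosis genes tested, 33 were negative and 3 positive, with a median of -0.19, and 14 had an unadjusted p under 0.05, all lower, where 3.43% of all genes were lower at that p. Ttk, the spindle checkpoint kinase, was the called one at 6.72, 7.84 and 9.37 CPM in WT and 4.94, 5.86 and 6.5 in Het, without overlap (log2 change -0.46 ± 0.09 SE, adjusted p = 0.0268). Ttk kept the call in 5 of 12 omissions of a library (WT 1, 2 or 4, Het 2 or 5), and its adjusted p was at most 0.0900 in the others. The call was also lost with the P5 libraries alone (adjusted p = 0.11), with the prefix as a block (0.12), by voom (0.055), with the replicate block and without the filter on low counts. No mitosis gene was called with the prefix block, where the list median was -0.15. The mean of the list was 3.40 and 3.46 on the log2 CPM scale in the WT libraries of prefix 3. It was 3.60 to 3.67 in the WT libraries of prefix 4 and 3.29 to 3.48 in the Het libraries. Top2a, the topoisomerase of dividing cells, also had groups that did not overlap, 44.3, 46.8 and 50.8 CPM in WT and 35.3, 40.4 and 41.7 in Het, and missed the threshold (adjusted p = 0.0716). Of 36 genes of S phase and DNA replication, 29 were negative and 7 positive (median -0.11), and none was called. The helicase subunits Mcm5 (22, 24 and 25.8 CPM in WT, 19.1, 20.2 and 22.3 CPM in Het, adjusted p = 0.217) and Mcm3 (adjusted p = 0.403) had the smallest p. Genes of 1 program are read from the same libraries and move together, so these counts are not independent.

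The unfolded protein response, which secretory cells use under protein load, was also mostly negative, with no call. Of 28 genes tested, 23 were negative and 5 positive (median -0.12). At an unadjusted p under 0.05 there were 7, all lower, where 3.43% of all genes were lower at that p. Chac1, a glutathione-degrading enzyme induced by the response, came closest at 19.8, 26.5 and 29.7 CPM in WT and 17.7, 19.6 and 21.7 in Het, with overlap (log2 change -0.41 ± 0.09 SE, adjusted p = 0.0533). Pdia6, a protein disulfide isomerase, was at 281, 310.2 and 334 CPM in WT and 248, 270.4 and 301 in Het (adjusted p = 0.513).

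Markers of tissue around the tooth were highest in single Het libraries. Of 16 tested muscle markers 14 were positive, and none was called. At an unadjusted p under 0.05 by edgeR 6 were higher (37.5%, against 6.22% of all genes). The median of the list was 0.75, and it was 0.33 with the prefix as a block and 0.21 without Het libraries 4 and 5. Myh8, a myosin of developing muscle, was at 19.9 CPM in Het library 5 and at most 0.655 CPM in the other 11. For 15 oral keratinocyte markers the median was 0.33, and -0.03 without these libraries. The mucosal keratin Krt4 reached 9.53 CPM in Het library 4 and at most 0.458 CPM elsewhere. Whether tissue from outside the tooth contributes to the called genes was not tested. Without Het libraries 4 and 5 the counts of called genes were 2 higher and 6 lower, all 8 of them among the 56: Plppr4 and Gpr165 higher, and Steap1, Cd55, Htatip2, Gpr4, Dpy19l2 and Mpv17l lower.

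In the immune lists, Igkc and Gpnmb were called in opposite directions. Igkc, the constant region of the immunoglobulin kappa chain, was at 2.9, 3.18 and 4.71 CPM in WT and 1.19, 1.53 and 1.77 in Het, without overlap (log2 change -1.19 ± 0.21 SE, adjusted p = 0.0102). The 15 tested markers of B and plasma cells were otherwise mixed (9 positive, 6 negative, median 0.07). Ighm, the heavy chain of IgM, was next by p at 7.45, 10.7 and 11.4 CPM in WT and 5.57, 7.06 and 9.07 in Het (adjusted p = 0.0971), and Ighg2b, Ighg2c, Iglc2, Mzb1 and Vpreb1 had too few reads to test. Gpnmb, a glycoprotein of macrophages and osteoclasts, was higher at 1.06, 1.29 and 2.18 CPM in WT against 2.14, 2.66 and 3.9 CPM in Het, with overlap (log2 change 0.98 ± 0.18 SE, adjusted p = 0.0146). It was not called by voom (adjusted p = 0.186), with the P5 libraries alone (0.0594) or with the replicate block. The macrophage list gave 12 positive and 10 negative of 22 (median 0.01). No osteoclast, cartilage, nerve, erythroid or T and NK cell marker was called, and 11 of the 16 markers of T and NK cells had too few reads to test.

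The genotype differences at P5 were set beside those at P11, which rest on other libraries. None of the 56 genes was called at P11, where 6 genes in all were called (0.0279%), and 31 of the 56 kept the sign of P5 while 25 had the opposite one. Each of the 56 was smaller in size at P11, with a median absolute log2 fold change of 0.116 against 0.634 at P5 (all genes, 0.134 at P11). Since the 56 were selected at P5, that comparison is a description. The difference between ages was tested by an interaction term, which called 3 genes of 21510 (0.0139%), and Steap1 was the only one of the 56 among them.

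Steap1 fell with age in WT molars by 3.26 on the log2 scale. At P11 the lowest, median and highest libraries held 5.44, 6.31 and 6.85 CPM in WT and 5.38, 8.16 and 10.3 CPM in Het, so the groups overlapped at the later age. The genotype effect went from -1.31 at P5 to 0.36 at P11, a difference of 1.66 ± 0.17 (SE; adjusted p = 2.07e-05). Crhr1 had a log2 fold change of -1.88 at P5 and -1.67 ± 0.50 (SE) at P11, but it was nearly silent at P11. It held 0.155 to 0.432 CPM in WT and 0 to 0.284 CPM in Het there, too little to compare the genotypes. In WT it had fallen with age by 4.60 on the log2 scale. Thbs1, at 157 to 257 CPM in the P11 libraries, had nearly the same value at both ages, -0.53 and -0.45 ± 0.10 (SE). Neither Crhr1 nor Thbs1 was called at P11. Csn3 went from -2.28 to 1.57 ± 0.52 (SE) at P11, and neither that value nor the interaction was called (adjusted p 0.339 and 0.0823). Dpy19l2 and Oprd1 reached at most 0.0473 and 0.284 CPM in any P11 library, too little to compare the genotypes there. In WT Csn3, Dpy19l2 and Oprd1 fell with age on the log2 scale, by 3.83, 7.05 and 5.56.

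**Figure D5:**
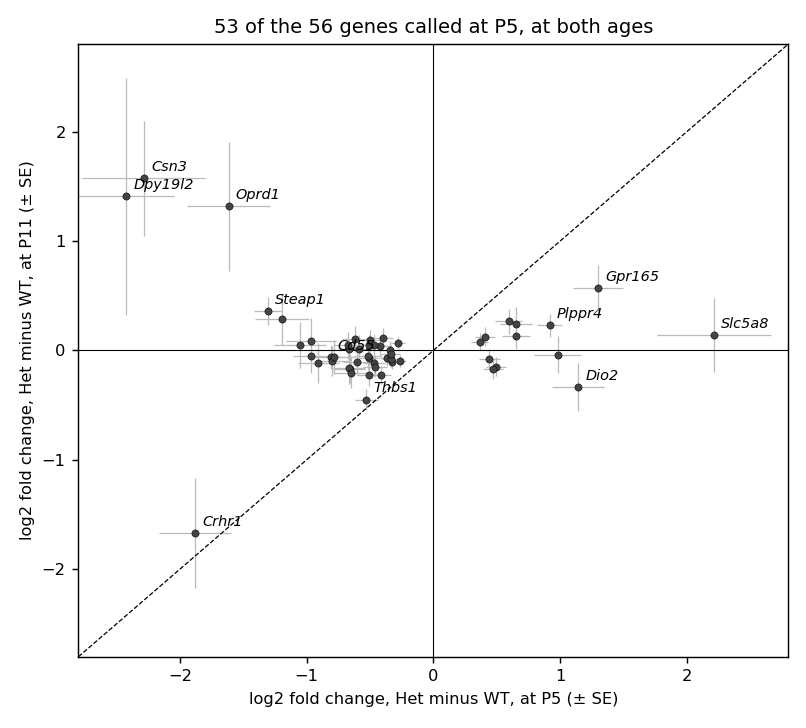
Log2 fold change, Het minus WT, at P5 (horizontal) and P11 (vertical) for 53 of the 56 genes called at P5, with 1 SE to either side and the diagonal of equal effects dashed. Glyat, Cd55b and Atp13a5 are left out for their low counts, and Steap1 lies at -1.31 and 0.36. Crhr1 lies near the diagonal, but it reached at most 0.432 CPM at P11.

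The calls varied in how firmly they stood. When each of the 12 P5 libraries was left out in turn, 28 of the 56 genes stayed called in all 12 omissions. Of these, Steap1, Plppr4, Cd55, Htatip2, Gpr4, Gpr165 and Dpy19l2 also stayed called in the 10 other settings examined (other scaling, tools and filters, blocks, sex as a covariate, the P5 libraries alone, and without Het libraries 4 and 5 or 5 and 6). With the prefix as a block 11 of the 56 lost the call and 45 kept it. In the fit of the P5 libraries alone 14 lost it, 39 kept it and 3 had too few reads to test. By voom 8 lost it. When 1 library was left out, the other 28 genes lost the call in 1 to 11 of the 12 omissions, with a highest adjusted p of 0.0530 (Dnajc9, without Het library 6) to 0.145 (Clu). Aqp1 lost it without Het library 5 alone (adjusted p = 0.0550), and Cd55b and Atp13a5 kept it in 1 omission, that of WT library 4. Without Het library 4, 5 or 6 the count of genes lower was 27, 25 or 26 in place of 42. Without Het libraries 5 and 6, which carry prefix 5 and include the library with 2 ages in its labels, 8 genes were lower and 5 higher, and 12 of these 13 are among the 56.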

How the data were processed

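RNA from first mandibular molars was read as bulk RNA-seq (Nextera XT, unstranded, 100 bp paired ends, per the labels' protocols). Per the submitters' processing notes the authors used STAR 2.7.3a, DESeq2, edgeR and limma with the build GRCm38, and what each of the last 3 tools did is not stated. The read counter and annotation: not given in the sources used here. Raw whole-number counts per gene were deposited, and every test and level rests on them. The deposited normalised values (unit: signal) are the authors' TMM-scaled CPM and served only for gene symbols. Of 55439 features 18 are not mouse genes and were left out, and 55240 of the other 55421 matched GENCODE M21.

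Counts of all 22 libraries were fitted by age and genotype in edgeR 4.0.16 (R 4.3.3, filterByExpr at count 10 and total 15, TMM, two-sided quasi-likelihood test, 18 residual degrees of freedom, Benjamini-Hochberg adjustment over 21510 genes, called under 0.05). The SE is the log2 fold change divided by the root of the F statistic. The test was run on counts simulated as independent libraries, which does not check the effect of libraries that share an animal or a prefix. Levels are TMM-scaled CPM. Without molecular identifiers, reads are not independent molecules, and depth gives counting error only. No replicate pair was close enough to be 1 library deposited again (chi-square per degree of freedom 6.7 to 92.7). Replicate numbers recur in both groups, but no label pairs the libraries, and no pairing was used in the main fit. The deviations of same-numbered libraries correlated at 0.037 to 0.209, over 0.1 in 3 of 6 pairs. Some same-numbered libraries also share a prefix, so these correlations cannot separate a pairing from the prefix. Alternatives were DESeq2 1.42.0, voom of limma 3.58.1, other scaling and filters, blocks, sex and omitted libraries.

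The comparison and all gene lists were chosen with earlier results of these data known, and lists carry no test. Named are every called gene (per-library values for the 20 with the smallest p), called list members, the 2 members with the smallest p of each pathway, tooth, matrix, cell cycle and stress list, Tgfbr2, the main enamel genes, and markers of other tissues where called or where a library stands apart. Steap3, Steap4, Cd55os, Dspp, the chromosome 5 neighbours of Csn3, other maturation genes and the genes of the closing section were added after their values were seen. Promoter windows of RefSeq (GRCm38.p6) were matched by symbol for 39 of the 56 called genes.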

Additional observations from a re-analysis of the deposited data

Results flagged for a closer look

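The effect of genotype differed between the ages in 3 genes by the interaction term of edgeR (0.0139% of 21510). The signed log2 fold change, Het minus WT, was higher at P11 than at P5 by 1.66 ± 0.17 (SE; log2, adjusted p = 2.07e-05) for Steap1, by 0.78 ± 0.11 (SE; adjusted p = 0.00223) for F13a1 and by 1.44 ± 0.23 (SE; adjusted p = 0.0151) for Cldn20. F13a1, a transglutaminase subunit of macrophages, and the claudin Cldn20 were not called at P5, where their log2 fold changes were -0.09 and -0.23.

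Between the sexes at P5 the genotype effect differed in 3 genes (0.0139%), all on chromosome 14, in a comparison added after seeing the data. It was lower in males than in females by a log2 difference of -2.89 ± 0.33 (SE; adjusted p = 4.48e-04) for 1810062O18Rik, -2.27 ± 0.36 (SE; adjusted p = 0.0243) for Samd8 and -3.79 ± 0.61 (SE; adjusted p = 0.0243) for Thrb, the thyroid hormone receptor beta. The 4 male Het libraries held 1.96 to 3.26 CPM of 1810062O18Rik, both female Het libraries 16.4 and 21.1 CPM, and the WT libraries 19.1 to 28.1 CPM. Thrb was at 3.34 to 6.17 CPM in the male and at 23.7 and 35.8 CPM in the female Het libraries. WT library 5, a female, held 2.91 CPM of it, where the other WT libraries ranged up to 37.4 CPM. With 2 female Het libraries the comparison rests on few samples, and leaving out single libraries left 1 to 3 genes.

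Of 214 groups of 6 libraries examined, 21 held a library that stood apart by Dixon's criterion, which chance gives in about 5% of independent groups. The 21 cannot be set against that rate. Some genes were examined because a library stood apart in them, and genes of 1 tissue move together. The count is a description. Among called genes these were Steap2 in WT 5 (63.7 CPM), Hs3st6 in Het 6 (2.7 CPM), Thbs1 in WT 2 (47.8 CPM), Col25a1 in WT 2 (37.1 CPM) and Het 2 (54.5 CPM), Olfml3 in WT 1 (24.7 CPM), Fst in Het 4 (5.15 CPM) and St3gal4 in Het 3 (79.4 CPM). Among other genes they were Adamts16 in Het 1 (1.78 CPM), Cldn1 in Het 3 (108 CPM), Top2a in Het 6 (35.3 CPM) and Steap3 in WT 1 (35.5 CPM). Muscle and oral mucosa genes stood apart in Het 5 (Myh8 19.9 CPM, Ckm 4.58 CPM, muscle list 1.16 in mean log2 CPM), in Het 4 (Krt4 9.53 CPM, Krt13 4.43 CPM, oral keratinocyte list 0.34) and in WT 5 (Krt4 0.458 CPM). The erythroid list was low in WT 5 (0.52) and the macrophage and myeloid list in WT 4 (2.35).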

How the results depend on the processing

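The counts of 14 genes higher and 42 lower stayed within 1.5 times under other scaling (14 and 43, all 56 shared), without a filter (14 and 43, 48 shared), by voom (18 and 41, 48 shared), with the P5 libraries alone (21 and 44, 39 shared), with the prefix block (20 and 49, 45 shared) and with sex as a covariate (14 and 44, 53 shared). DESeq2 called 43 higher and 90 lower, with 54 of the 56 among them and no adjusted p for Glyat and Cd55b. Smaller subsets of the P5 libraries gave these calls: 0 higher and 1 lower within prefix 3, 2 and 3 within prefix 4, 5 and 8 without Het libraries 5 and 6, and 2 and 6 without Het libraries 4 and 5. Leaving out 1 library gave 10 to 16 higher and 25 to 42 lower. The interaction count of 3 became 5 without a filter, 56 by DESeq2 and 29 with the prefix block, and ran from 3 to 7 with 1 library left out, reaching 6 without WT library 4 and 7 without Het library 1. The count for sex by genotype ran from 1 to 3. The cause was not tested.

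Replicate numbers do not pair the libraries by the labels. Correlations of same-numbered libraries ran from 0.037 to 0.209, and 3 of 6 libraries correlated best with their own number. With the replicate block 17 genes were higher and 48 lower (48 of the 56 shared), and the interaction called 27.

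None of the 56 called genes turned sign in any setting. Values that did belong to genes not called: Tgfbr2 (-0.040 with the prefix block, -0.079 within prefix 4, -0.017 without Het libraries 5 and 6), Amelx (-0.024 within prefix 3), Myh8 (-0.66 within prefix 3), Krt4 (-0.72 within prefix 3, -0.56 without Het libraries 4 and 5, -0.80 to 4.46 with 1 library left out, lowest without Het library 4), Krt13 (-0.32 within prefix 3) and Oxsm (0.024 within prefix 4). Depth limits Glyat, Slc5a8, Cd55b and Atp13a5, each with at most 115 counts in a group.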

Other observations

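Besides the 3 chromosome 14 genes named above, Kctd6 and Oxsm on the same chromosome varied between libraries in a like manner. Kctd6, an adaptor of a ubiquitin ligase, ranged from 3.14 to 15.0 CPM in Het and from 4.26 to 15.8 CPM in WT, and Oxsm, a mitochondrial fatty acid synthase enzyme, from 0.835 to 4.88 CPM in Het and from 1.29 to 4.60 CPM in WT. Usp54, called lower at P5, overlaps 1810062O18Rik, and the unstranded reads of the 2 genes cannot be told apart where they overlap. Dnajc9, also called lower, lies 160 kb from Usp54, with 5 tested genes between them. One of these, Cfap70, was at 4.51, 4.99 and 5.54 CPM in WT (lowest, median, highest) and 2.85, 3.46 and 4.53 CPM in Het and was not called (edgeR adjusted p = 0.366). These genes were chosen after their values were seen.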
